A study of Mus musculus with 6 samples.

Results

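The glucocorticoid receptor gene, the genes of its relative and its co-chaperones, and a set of its best-known target genes were followed in mouse HT22 cells exposed to interleukin 17 (IL-17). The set was Nr3c1, Nr3c2, Hsd11b1, Fkbp5, Fkbp4, Tsc22d3, Per1, Sgk1, Dusp1 and Klf9, taken by symbol from the deposited expression table, and all 10 were among its 26595 genes. HT22 is an immortal cell line of mouse hippocampal origin, labelled wild type here. In one group, 3 libraries (IL-17 libraries 1 to 3) came from cells exposed to IL-17, a cytokine made mainly by T cells. In the other, 3 libraries (control libraries 1 to 3) came from cells given no special treatment. All cells were kept in DMEM with fetal bovine serum and antibiotics, and no glucocorticoid is named in the labels, which give neither dose nor duration for IL-17. The labels do not say that the libraries came from separate cultures, and the p-values therefore speak to the spread among the libraries, part or all of which may be technical. The question asked of these genes was whether their transcript levels differed between cells exposed to IL-17 and control cells.

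Levels are FPKM, fragments per kilobase of transcript scaled to the mapped fragments of the library, and summed to between 365534 and 383093 per library. The table holds no counts, and the sequencing depth could not be settled from its low values. The labelled origin was checked against marker genes. Tubb3, a neuronal tubulin, was the highest of the neuronal markers at 11.1 to 11.9 FPKM in IL-17 libraries, against 13.4 to 14.8 in controls, while Rbfox3, which marks mature neurons, was listed at 0 in 5 of the 6 libraries. The highest of the fibroblast and mesenchyme markers was S100a4, at 2204 to 2471 FPKM in IL-17 libraries, against 2231 to 2595 in controls. Col1a1, a fibroblast collagen, stood at 132.5 to 150.2 FPKM in IL-17 libraries, against 153.4 to 181.0 in controls. Ptprc, the general leukocyte marker, stood at 1.02 to 1.08 FPKM in IL-17 libraries, against 0.694 to 0.867 in controls. The highest of the leukocyte and macrophage markers was Cd68, at 247.1 to 284.5 FPKM in IL-17 libraries, against 236.5 to 253.5 in controls, while the macrophage receptor gene Csf1r was at 18.9 to 19.7 FPKM, against 20.5 to 22.6 in controls. The rest of that list was low. Itgam, Aif1, Cx3cr1 and P2ry12 had means of 0.160, 0.264, 0.0775 and 0.0496 FPKM over the 6 libraries. Transcripts of liver and lung were uneven between libraries. The summed level of 8 liver markers ran from 13.9 to 103.3 FPKM in IL-17 libraries and from 53.3 to 97.3 in controls, with albumin (Alb) at 6.75 to 51.4 and 27.5 to 47.1 FPKM. That of 7 lung markers ran from 295.6 to 400.5 FPKM in IL-17 libraries and from 159.5 to 223.6 in controls, with the surfactant gene Sftpc at 25.8 to 35.3 and 0.170 to 15.2 FPKM. The highest of the lung markers, Cbr2, a carbonyl reductase gene, stood at 144.6 to 156.1 FPKM in IL-17 libraries, against 94.0 to 100.6 in controls. In control libraries 1 and 2 the lung sum was almost all Cbr2 (95.4 and 94.0 FPKM) and Lyz2, a lysozyme gene (82.2 and 64.9 FPKM). Sftpc was at 0.331 and 0.170 FPKM in these libraries, so their sums do not show abundant surfactant transcripts. Of the markers tested, limma called Cbr2 higher with IL-17 (adjusted p = 0.00155) and Vim, a mesenchymal filament gene, lower (0.0334).

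The glucocorticoid receptor is held in the cytosol by HSP90 and its co-chaperones. Once it binds corticosterone or cortisol it moves to the nucleus, where it sits on response elements and raises or lowers nearby genes. Its targets include feedback inhibitors of the receptor itself, brakes on inflammatory signalling, and regulators of metabolism and of the circadian clock. In the hippocampus the receptor and its close relative, the mineralocorticoid receptor, set the response to stress hormones.

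Promoter sequence shows what some of these target genes carry just upstream of an annotated start. RefSeq windows on GRCm38.p6, each from 250 bases before to 50 bases after a start, were matched by symbol for 9 of the 10 genes, 17 windows in all. They were searched on both strands for the palindromic glucocorticoid response element (AGAACA and TGTTCT separated by any 3 bases), the cAMP response element (TGACGTCA) and the E-box bound by clock factors (CACGTG). The glucocorticoid element occurred in 1 of the 17 windows, at Sgk1, and in 3 of all 32851 mouse windows (0.00913%). The cAMP element occurred in 1 of the 17 windows, at Dusp1, and in 1.79% of all windows. The E-box occurred in 4 of the 17 windows, at Dusp1, Fkbp5, Per1 and Sgk1, and in 7.15% of all windows. The stretches below are shown because they belong to the target genes whose levels are given next. Each is written 5′ to 3′ on the strand of its gene, with the match in capitals.
Sgk1, glucocorticoid element, chr10:21993681-21993735, plus strand: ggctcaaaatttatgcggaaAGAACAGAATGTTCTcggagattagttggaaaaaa
Dusp1, cAMP element, chr17:26508588-26508635, minus strand: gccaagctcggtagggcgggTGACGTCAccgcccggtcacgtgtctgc
Per1, E-box, chr11:69098763-69098808, plus strand: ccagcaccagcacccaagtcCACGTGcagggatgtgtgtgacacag
Fkbp5, E-box, chr17:28486293-28486338, minus strand: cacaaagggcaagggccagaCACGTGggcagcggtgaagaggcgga
A match describes the letters only, and a window without one says nothing about binding elsewhere, such as in the introns of Fkbp5.

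None of the receptor and target genes that could be tested passed the test between IL-17 and control cells. Of the 10 genes, 8 reached a mean level of 0.5 FPKM over the 6 libraries and were tested, Nr3c2 and Hsd11b1 being below it, and 0 of these 8 passed limma at an adjusted p under 0.05, with Benjamini-Hochberg adjustment over all 12953 tested genes. At an unadjusted p under 0.05 the count was also 0. Over all tested genes 1.95% passed, 0.95% as higher and 0.996% as lower with IL-17, and 16.7% were at an unadjusted p under 0.05. The fold changes of the 8 genes, on the log2(FPKM + 1) scale, ran from -0.09 for Fkbp4 to 0.15 for Klf9. Their median was -0.04, beside 0.02 over all tested genes. Their standard errors ran from 0.05 to 0.11, and their 95% intervals together reached from -0.23 at Sgk1 to 0.42 at Klf9. On this scale, a log2 difference as large as 0.5 lay outside the interval of each of the 8 genes. A p that misses the threshold does not show that levels were equal. The log2(FPKM + 1) scale also understates changes of genes near 2 FPKM, such as Nr3c1 and Klf9. With a pseudocount of 0.1 the log2 fold change of Klf9 was 0.22 (SE 0.16). A difference of 0.5 in log2 FPKM itself is therefore not excluded for such genes.

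**Figure D1:**
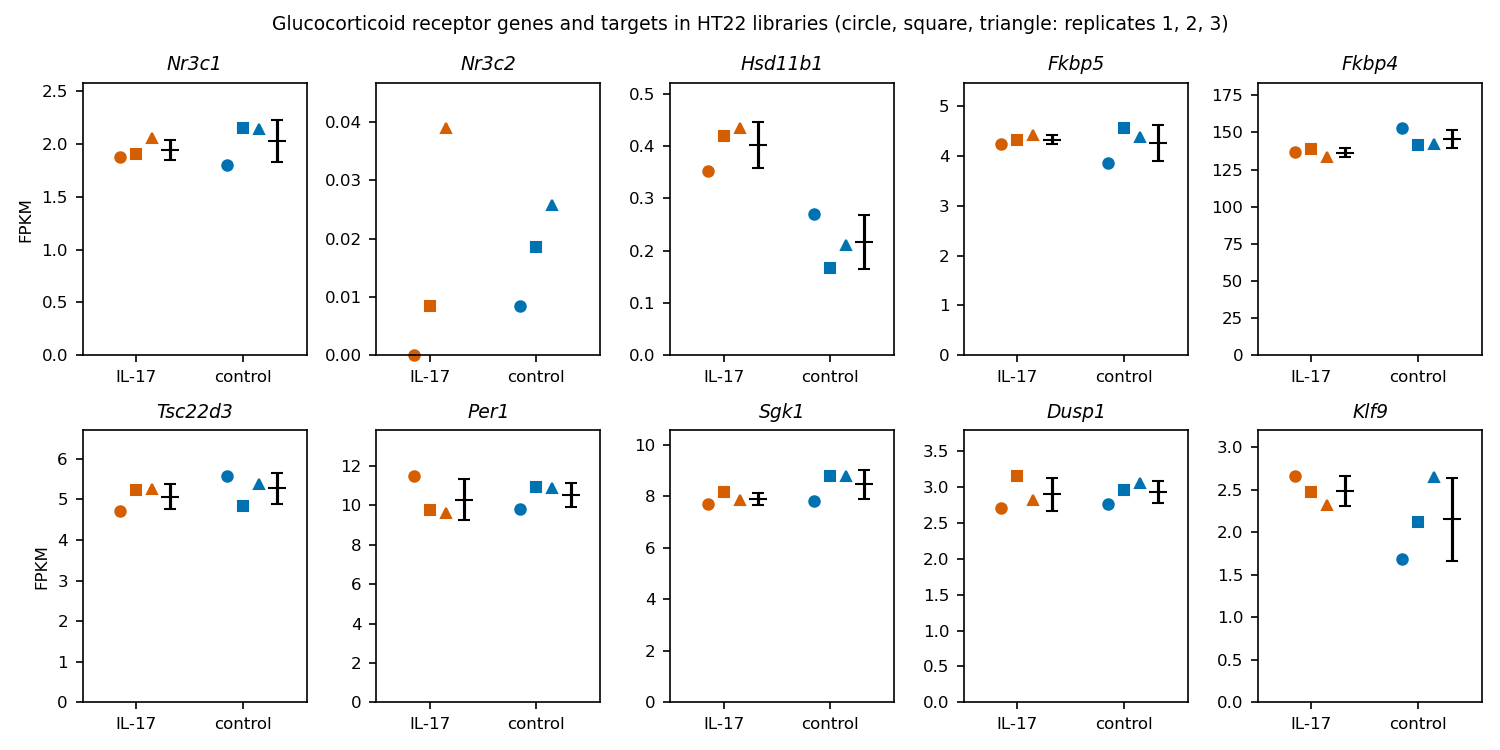
FPKM (linear axis from 0) of the 10 receptor and target genes in each of 3 IL-17 and 3 control libraries, with circles, squares and triangles for replicates 1, 2 and 3, and bars for the mean and SD, left out for Nr3c2, which has a value of 0. The groups overlapped for 8 genes and stood apart for Fkbp4, which was lower with IL-17, and for Hsd11b1, which was higher at under 0.5 FPKM. Groups stood apart for 24.2% of all tested genes.

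Nr3c1, which encodes the glucocorticoid receptor, was present at a modest level. It stood at 1.88, 1.91 and 2.06 FPKM in IL-17 libraries, against 1.80, 2.15 and 2.14 FPKM in control libraries. The groups overlapped, with both the lowest and the highest value in controls. The log2 fold change was -0.04 (SE 0.07, 95% interval -0.21 to 0.13; limma adjusted p = 0.828). Nr3c2, which encodes the mineralocorticoid receptor, was close to absent from the table. It was listed at 0, 0.00837 and 0.0389 FPKM in IL-17 libraries, against 0.00848, 0.0185 and 0.0258 in controls, too low to be tested. Of the pair of receptors that bind corticosterone, transcripts were thus measured mainly for Nr3c1, in both groups.

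Hsd11b1 (chromosome 1, 193221634 to 193264075, minus strand, GRCm38) encodes the enzyme that regenerates active glucocorticoid from its inert keto form inside cells. It stood at 0.352, 0.420 and 0.433 FPKM in IL-17 libraries, against 0.269, 0.167 and 0.211 FPKM in controls. Every IL-17 value was above every control value, and the mean was 0.402 ± 0.0435 FPKM with IL-17, against 0.216 ± 0.0513 in controls (SD, n = 3 each). An exact permutation test, two-sided, returned p = 0.1, which is the floor for 3 libraries against 3, and with no filter on low values limma did not call it (log2 fold change 0.21, adjusted p = 0.193). At such a level the log2 difference hangs on the pseudocount, being 0.68 with a pseudocount of 0.1 and 0.33 with 0.5. Among the 3799 genes with a mean from 0.1 to 0.5 FPKM, 10.5% were higher in every IL-17 library than in every control. Hsd11b1 is known for its high level in liver and its presence in lung. IL-17 library 1, with the highest summed liver markers (103.3 FPKM), had the lowest Hsd11b1 of its group. Control library 1, with the highest liver sum of the controls (97.3 FPKM), had the highest Hsd11b1 of its group. Summed lung markers were higher in all IL-17 libraries than in all controls. IL-17 library 3, with the highest lung sum (400.5 FPKM), had the highest Hsd11b1. Control library 3, with the highest lung sum of the controls (223.6 FPKM), had less Hsd11b1 (0.211 FPKM) than control library 1 (0.269 FPKM). The part of liver and lung transcripts in the result was not tested. The gene overlaps Lamb3 on the opposite strand of chromosome 1, which was at 0.0648, 0.131 and 0.140 FPKM with IL-17, against 0.0319, 0.0357 and 0.165 in controls, and whether strand was used in counting is not stated.

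The partner enzymes and transporters of the hormone did not pass the test either. H6pd, which supplies the cofactor for the Hsd11b1 enzyme, stood at 24.5, 22.8 and 21.5 FPKM in IL-17 libraries, against 19.97, 21.2 and 21.7 FPKM in controls (log2 fold change 0.12, SE 0.06; limma adjusted p = 0.373). Cyp11a1, which begins steroid synthesis from cholesterol, stood at 1.69 to 1.87 FPKM with IL-17, against 1.84 to 2.13 in controls. Of the 12 genes listed for steroid synthesis, conversion and transport, 11 were in the table and 4 were tested, and 0 passed limma, with 0 at an unadjusted p under 0.05. Hsd11b2, which inactivates the hormone, was at 0.635, 0.303 and 0.113 FPKM in IL-17 libraries, against 0.265, 0.525 and 0.368 in controls. Its widest values were both in the IL-17 group.

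The genes of the co-chaperones stood at very unequal levels. Fkbp4, whose protein binds the receptor with HSP90 and favours its transport to the nucleus, was the highest of the 10 genes. It stood at 136.8, 139.0 and 133.1 FPKM in IL-17 libraries, against 152.7, 141.4 and 142.4 FPKM in controls. All IL-17 values lay below all control values, as they did for 10.9% of tested genes. The log2 fold change was -0.09 (SE 0.05, 95% interval -0.21 to 0.03; limma adjusted p = 0.398), so it did not pass. In bulk RNA, fewer cells carrying a transcript and less of it per cell cannot be told apart.

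Fkbp5 (chromosome 17, 28399094 to 28517527, minus strand, GRCm38) encodes the co-chaperone that lowers the affinity of the receptor for hormone, and it is itself a target of the receptor and so a feedback inhibitor. It stood at 4.25, 4.32 and 4.43 FPKM in IL-17 libraries, against 3.87, 4.56 and 4.39 FPKM in controls. The IL-17 values fell inside the range of the controls, with a log2 fold change of 0.02 (SE 0.07; limma adjusted p = 0.918). Over the 6 libraries the mean level of Fkbp4 was 32.8 times that of Fkbp5, both per kilobase. The ratio of Fkbp5 to Fkbp4 was 0.0310, 0.0311 and 0.0332 in IL-17 libraries, against 0.0253, 0.0322 and 0.0308 in controls. The mean log2 ratio was higher by 0.12 with IL-17 (exact two-sided permutation p = 0.4, where 0.1 is the smallest possible), and control library 1 had the lowest ratio. Without that library the difference in log2 ratio was 0.01.

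Tsc22d3 (chromosome X, 140539528 to 140600659, minus strand, GRCm38) encodes GILZ, the glucocorticoid-induced leucine zipper, a protein that restrains NF-kB and AP-1. It stood at 4.72, 5.22 and 5.26 FPKM in IL-17 libraries, against 5.58, 4.84 and 5.38 FPKM in controls. The groups overlapped, with a log2 fold change of -0.05 (with SE 0.07 and 95% interval -0.21 to 0.12; limma adjusted p = 0.782). Dusp1 encodes a phosphatase that switches off p38 and JNK, another brake on inflammatory signalling induced by glucocorticoids. It stood at 2.71, 3.16 and 2.81 FPKM in IL-17 libraries, against 2.76, 2.96 and 3.05 FPKM in controls. Both its lowest and its highest value were in the IL-17 group (log2 fold change -0.01, SE 0.07; limma adjusted p = 0.948). Dusp1 overlaps Ergic1 on the opposite strand, at 16.3 to 17.3 FPKM with IL-17, against 18.4 to 19.3 in controls. On that strand Dusp1 also overlaps the pseudogene Gm8225, at 3.16 to 4.05 FPKM with IL-17, against 2.80 to 3.81 in controls. Reads of Dusp1 and of either gene cannot be told apart if strand was ignored.

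Sgk1 (chromosome 10, 21882184 to 21999903, plus strand, GRCm38) encodes a kinase that raises sodium transport and cell survival, and 1 of its promoter windows carries the response element printed above. It stood at 7.68, 8.15 and 7.84 FPKM in IL-17 libraries, against 7.82, 8.77 and 8.80 FPKM in controls. Control libraries 2 and 3 were above all IL-17 libraries, while control library 1 lay among them. The log2 fold change was -0.09 (SE 0.06, 95% interval -0.23 to 0.06; limma adjusted p = 0.509).

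Per1, a repressor of the circadian clock that glucocorticoids induce directly, stood at 11.5, 9.74 and 9.63 FPKM in IL-17 libraries, against 9.81, 10.9 and 10.9 FPKM in controls. IL-17 library 1 had the highest value of all and the other IL-17 libraries the lowest (log2 fold change -0.03, SE 0.08; limma adjusted p = 0.874). Klf9, a transcription factor gene induced by both glucocorticoid and thyroid hormone in neurons, stood at 2.66, 2.47 and 2.32 FPKM in IL-17 libraries. In controls it stood at 1.68, 2.12 and 2.65 FPKM. Its controls were the most spread of the 8 tested genes, with a coefficient of variation of 22.6%, and the log2 fold change was 0.15 (SE 0.11, 95% interval -0.11 to 0.42; limma adjusted p = 0.529).

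Ordered by mean level over the 6 libraries, the genes ran Fkbp4, Per1, Sgk1, Tsc22d3, Fkbp5, Dusp1, Klf9, Nr3c1, Hsd11b1 and Nr3c2. Of the neighbours in this order, Klf9 and Nr3c1 overlapped over the 6 libraries, and the other pairs of neighbours did not. Fkbp4 was above 96.9% of tested genes in mean level and Nr3c1 above 27.7%. Within the controls, library 1 was the lowest or the highest value for all 10 genes, being lowest for 7 and highest for Fkbp4, Tsc22d3 and Hsd11b1. The same library was at an end of its group for 77.4% of all tested genes.

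**Figure D2:**
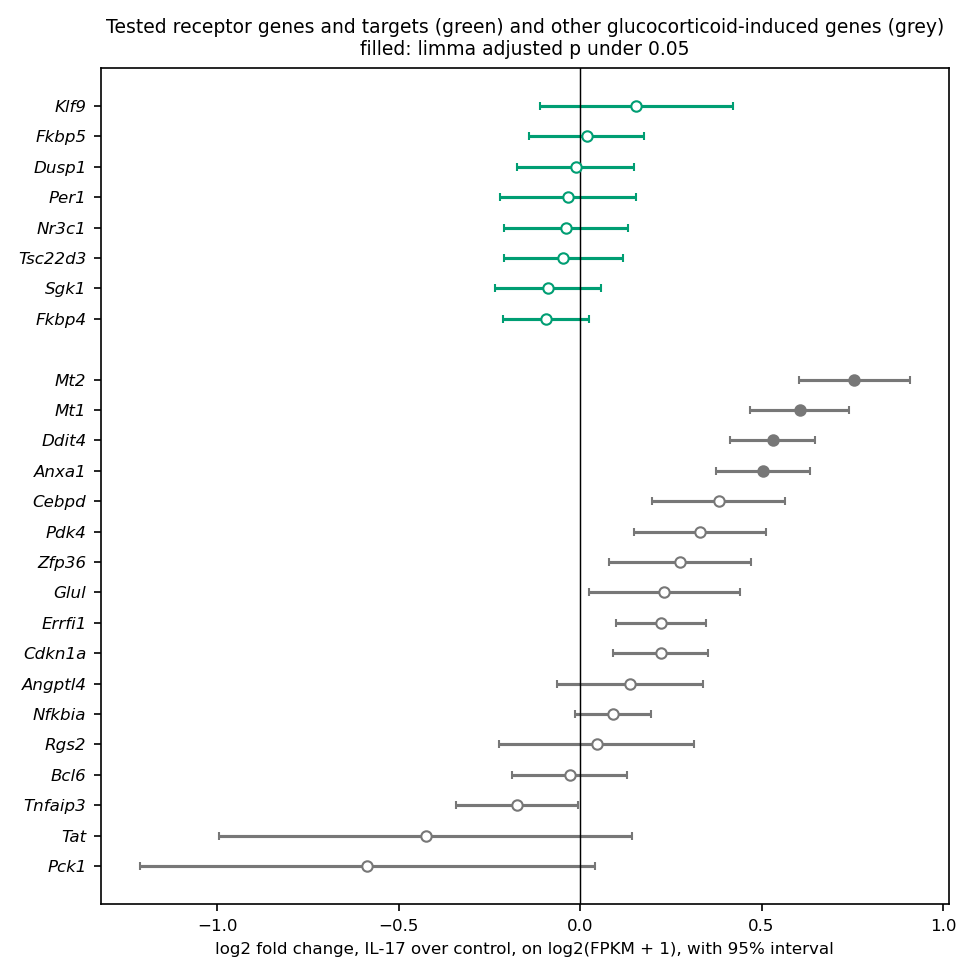
Log2 fold change of IL-17 over control on the log2(FPKM + 1) scale with its 95% interval for the 8 tested receptor and target genes (green) and the 17 tested genes of a wider glucocorticoid-induced list (grey), filled where limma called the gene. All 8 green intervals cross 0, and the filled points are Mt2, Mt1, Ddit4 and Anxa1.

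Some other genes known to be induced by glucocorticoids did rise. Of 22 such genes outside the set, 17 were tested, and 4 rose, 0 fell and 13 did not pass, where 0.95% of all tested genes rose. At an unadjusted p under 0.05, 11 of the 17 passed, beside 16.7% of all tested genes, and of these 11 Tnfaip3 alone was lower with IL-17. The median log2 fold change of the list was 0.22, beside 0.02 over all tested genes. The list was chosen with earlier results of these data known, so its counts and median are a description only. The 4 that rose were 2 metallothionein genes, a stress-induced inhibitor of mTORC1 and annexin A1. Many of these genes are also known to respond to signals other than glucocorticoids.

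Mt2, which encodes a metal-binding protein, stood at 979.1, 986.0 and 1114 FPKM in IL-17 libraries, against 628.0, 595.5 and 596.0 FPKM in controls. Its groups were far apart, with a log2 fold change of 0.76 (SE 0.07; limma adjusted p = 0.00198). Its neighbour in function Mt1 stood at 411.5, 368.6 and 366.0 FPKM in IL-17 libraries, against 250.3, 252.3 and 249.0 FPKM in controls, a log2 fold change of 0.60 (SE 0.06; limma adjusted p = 0.00297). Ddit4, the mTORC1 inhibitor, stood at 43.6, 43.5 and 43.8 FPKM in IL-17 libraries, against 30.1, 28.5 and 31.1 FPKM in controls. Anxa1, whose protein mediates part of the anti-inflammatory action of glucocorticoids, stood at 42.6, 47.5 and 45.6 FPKM in IL-17 libraries, against 31.9, 32.1 and 30.7 FPKM in controls. Its log2 fold change was 0.50 (SE 0.06; limma adjusted p = 0.00496). Liver transcripts stood apart from their group in IL-17 library 1 and lung transcripts in control library 3. With both left out, limma called the same 4 genes and also Pck1, described next. That step did not even out the tissues. Summed lung markers were then 295.6 and 400.5 FPKM in IL-17 libraries, against 178.2 and 159.5 in controls, where the sum was almost all Cbr2 and Lyz2. Sftpc was at 25.8 and 35.3 FPKM in these IL-17 libraries, against 0.331 and 0.170 in these controls. Summed liver markers were 13.9 and 21.8 FPKM with IL-17, against 97.3 and 81.8 in controls. The part of these transcripts in the 4 calls was not tested.

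Members of the list that did not pass are given here, as chosen after their values were seen. Cebpd, a transcription factor gene, stood at 151.9, 145.5 and 125.2 FPKM in IL-17 libraries, against 109.0, 102.6 and 111.1 FPKM in controls (limma adjusted p = 0.0613). It was called with quantile normalization (limma adjusted p = 0.0469) and without IL-17 library 3 (0.0222). Tnfaip3, an inhibitor of NF-kB signalling, lay on the other side, at 3.60 to 3.94 FPKM with IL-17, against 3.90 to 4.54 in controls (limma adjusted p = 0.285). Pck1 and Tat, both genes of liver metabolism, had the most negative fold changes, -0.59 and -0.43. Pck1 was at 3.28, 0.995 and 1.58 FPKM in IL-17 libraries, against 3.86, 3.47 and 2.44 in controls, and Tat at 1.81, 0.407 and 0.765 in IL-17 libraries, against 1.62, 1.96 and 1.18 in controls. Without IL-17 library 1 and control library 3, Pck1 was called lower with IL-17 (log2 fold change -1.04; limma adjusted p = 0.0326). Both genes were low in IL-17 libraries 2 and 3, the libraries with the lowest summed liver markers (13.9 and 21.8 FPKM); the part of liver transcripts in these values was not tested.

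Genes of the chaperone machinery that folds the receptor for hormone binding had means from 9.17 to 894.0 FPKM over the 6 libraries. Of 16 tested chaperone and co-chaperone genes, 1 rose, 0 fell and 15 did not pass, with a median of -0.06. Over all tested genes 0.95% rose and 0.996% fell, with a median of 0.02. At an unadjusted p under 0.05 were 2 of the 16, beside 16.7% of all tested genes. The chaperone gene that rose was Hsp90aa1, the stress-inducible cytosolic HSP90, at 53.0, 54.9 and 53.4 FPKM in IL-17 libraries, against 41.6, 45.5 and 42.7 FPKM in controls. Its log2 fold change was 0.31 (SE 0.05; limma adjusted p = 0.0297). The call was lost when any 1 library was left out, with limma adjusted p-values from 0.0514 to 0.167, with TPM scaling (0.0614), and with IL-17 library 1 and control library 3 left out together (0.18). The log2 fold change ran from 0.28 to 0.36 over all alternatives, including 0.31 in these last 2. Hsp90ab1, the constitutive form, stood at 861.8, 853.3 and 846.7 FPKM in IL-17 libraries, against 899.0, 954.5 and 948.9 FPKM in controls and did not pass (log2 fold change -0.13, SE 0.05; limma adjusted p = 0.25). The ratio of Hsp90aa1 to Hsp90ab1, chosen after the values were seen, was 0.0615, 0.0643 and 0.0631 in IL-17 libraries, against 0.0462, 0.0476 and 0.0450 in controls, with no overlap (exact two-sided permutation p = 0.1, the smallest possible). With Hsp90aa1 above all controls and Hsp90ab1 below all controls in every IL-17 library, the ratio could not overlap. Its p therefore adds nothing to the values of each gene.

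A relative of Tsc22d3 moved where Tsc22d3 itself did not pass. Tsc22d1, a leucine zipper gene known as a TGF-beta-stimulated transcript, stood at 15.9, 17.2 and 18.2 FPKM in IL-17 libraries, against 11.5, 12.1 and 12.5 FPKM in controls. It rose by a log2 fold change of 0.47 (SE 0.06; limma adjusted p = 0.0128). The call was lost without IL-17 library 2 (limma adjusted p = 0.0742), control library 1 (0.0547) or control library 2 (0.0582). The ratio of Tsc22d3 to Tsc22d1, chosen after the values were seen, was 0.296, 0.304 and 0.288 in IL-17 libraries, against 0.483, 0.400 and 0.429 in controls. Every IL-17 ratio was lower than every control ratio, and the mean log2 ratio was -1.76 ± 0.0390 with IL-17, against -1.20 ± 0.139 in controls (SD, n = 3 each; exact two-sided permutation p = 0.1, the smallest possible). Given the values of both genes, these ratios could not have overlapped, so that p adds nothing to the call of Tsc22d1. Tsc22d2 and Tsc22d4, the other members of the family, did not pass.

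**Figure D3:**
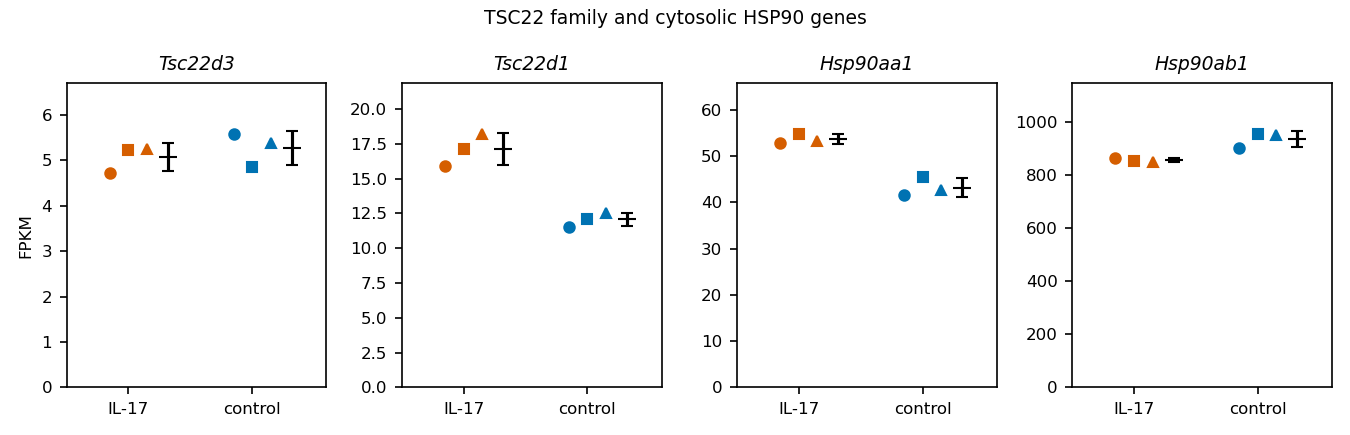
FPKM (linear axes from 0) of Tsc22d3, Tsc22d1, Hsp90aa1 and Hsp90ab1 in 3 IL-17 and 3 control libraries, with the mean and SD beside the points. Tsc22d3 overlapped between the groups, while Tsc22d1 at 15.9 to 18.2 FPKM with IL-17 and Hsp90aa1 at 53.0 to 54.9 lay above all controls.

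The remaining lists gave no call. At an unadjusted p under 0.05, where 16.7% of all tested genes stood, were 2 of 15 coregulators, 4 of 16 clock genes, 1 of 11 KLF genes, 3 of 11 FKBP genes and 2 of 9 DUSP genes. Of 15 tested receptor coregulators, 0 passed limma. The 2 with the smallest p were Hexim1, whose protein binds the receptor and holds back transcription elongation, at 9.46 to 10.0 FPKM with IL-17, against 10.9 to 11.2 in controls, and the deacetylase gene Hdac2, at 10.7 to 11.3 and 9.82 to 10.1 FPKM. Of 16 tested clock genes, 0 passed, with a median of 0.06. Bhlhe40, a repressor of the clock, stood at 22.1, 21.9 and 20.9 FPKM in IL-17 libraries, against 17.1, 18.1 and 19.3 FPKM in controls (log2 fold change 0.24, SE 0.06; limma adjusted p = 0.0999). Nfil3, another repressor, stood at 19.1 to 21.1 FPKM with IL-17, against 17.2 to 17.8 in controls (limma adjusted p = 0.132). Neither had overlapping groups, as was so for 24.2% of tested genes.

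Relatives of the other target genes were likewise uncalled by limma. Of 11 tested KLF genes 0 passed. Klf13, which had the smallest p of them, stood at 3.12 to 3.67 FPKM with IL-17, against 2.74 to 3.09 in controls. Klf10, known as an early gene of TGF-beta signalling, stood at 5.05 to 5.54 FPKM with IL-17, against 5.69 to 6.32 in controls. Of 11 tested FKBP genes outside the set 0 passed, and 9 had negative fold changes, where 44.9% of all tested genes had one. Fkbpl, a co-chaperone of steroid receptors, stood at 7.54 to 8.27 FPKM with IL-17, against 6.52 to 7.23 in controls, and Fkbp2 of the endoplasmic reticulum at 57.8 to 61.6 and 63.4 to 71.0 FPKM. Of 9 tested DUSP genes 0 passed. Dusp8, a phosphatase of JNK and p38, stood at 1.11, 0.905 and 0.817 FPKM in IL-17 libraries, against 1.42, 1.43 and 1.47 FPKM in controls (limma adjusted p = 0.089), and Dusp6, a phosphatase of ERK, at 4.45 to 4.75 FPKM with IL-17, against 3.66 to 4.08 in controls (0.186). Of the 6 genes listed for SGK kinases and the sodium channel only 2 were tested, and 0 passed, with 0 at an unadjusted p under 0.05. They were Scnn1a, a channel subunit gene at 0.785 to 0.884 FPKM with IL-17, against 0.569 to 0.822 in controls, and Nedd4l, whose ubiquitin ligase is a substrate of SGK1.

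**Figure D4:**
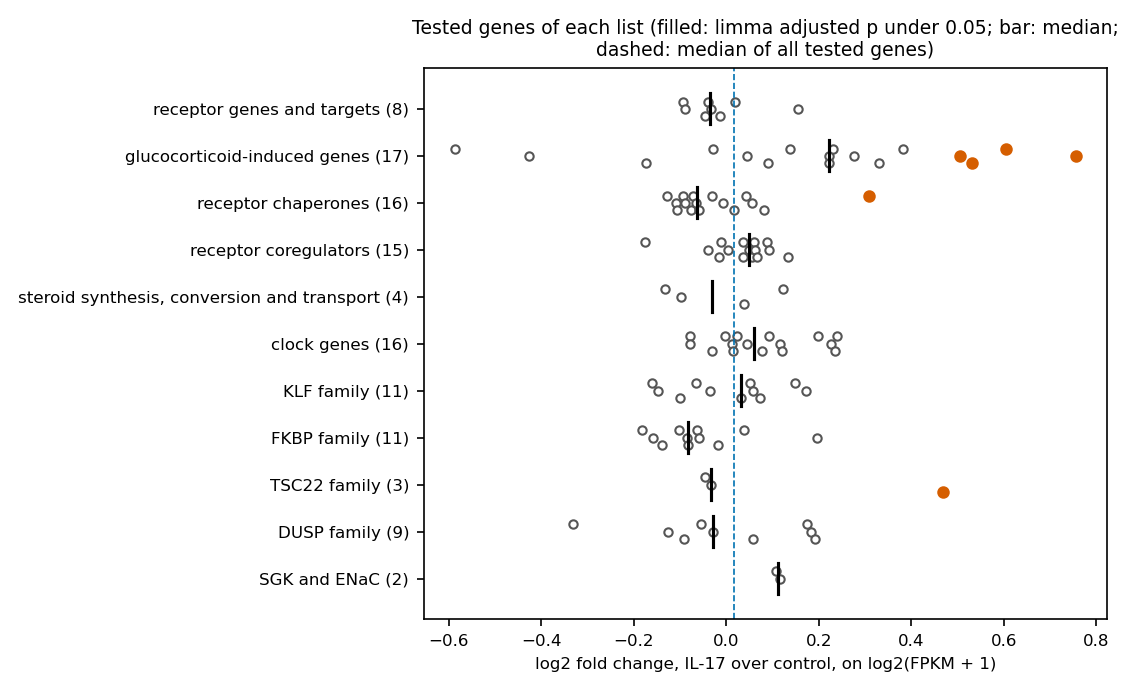
Log2 fold changes of IL-17 over control on the log2(FPKM + 1) scale for the tested genes of each list, with the number tested in brackets, a bar at each median, filled points for genes called by limma, and a dashed line at the median of all tested genes (0.02). The 8 receptor and target genes lie between -0.09 and 0.15, and the 6 called genes belong to the glucocorticoid-induced, chaperone and TSC22 lists.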

How the data were processed

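Poly(A) RNA of 6 HT22 libraries was sequenced, and groups came from the treatment label of each sample. The authors deposited FPKM values per gene, 1 column per library. Fastp, StringTie, edgeR and mm10 are named per the submitters' processing notes, without roles or versions; aligner and annotation release are not given in the sources used here. Because FPKM are relative, abundant transcripts can depress the others. Symbols came from GENCODE vM21 on GRCm38 (26525 of 26595 identifiers matched; 0 columns were left out).

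Genes with a mean of at least 0.5 FPKM (12953; 13642 left out) were analysed as log2(FPKM + 1) by limma 3.58.1 (R 4.3.3), modelling group alone and letting the variance prior follow the mean. Genes with a Benjamini-Hochberg adjusted p under 0.05 over all tested genes were called; intervals are at 95%. Single values were given exact permutation tests (scipy 1.17.1). For 10445 genes with 1 annotated transcript, FPKM times length had its fullest bin at 0.057 to 0.063 in 5 libraries and at 0.029 in control library 1, so 1 fragment could not be identified and depth stays unknown.

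Members and gene lists were chosen with earlier results of these data known. Named by rule were the 10 members and up to 3 called genes in each direction per list, or up to 2 uncalled ones with the smallest p. Named outside this rule were Anxa1, called beyond the 3 of its list, Cebpd, Tnfaip3, Pck1, Tat, Hsd11b2, Hsp90ab1, Tsc22d2 and Tsc22d4. Also named were genes overlapping members, genes most like Nr3c1, and marker genes, including Csf1r, a further macrophage marker. Alternatives changed the pseudocount, filter, scaling, variance model and replicate block, or left out libraries.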

Additional observations from a re-analysis of the deposited data

How the results depend on the processing

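Over 17 alternatives 0 of the receptor and target genes was called by limma. Fkbp4 (-0.12 to -0.06) and Sgk1 (-0.14 to -0.05) kept a negative and Klf9 (0.04 to 0.27) a positive log2 fold change. Uncalled genes near 0 changed sign. Fkbp5 became -0.0017 with median-ratio scaling and -0.0199 with quantile normalization, and ran from -0.038 to 0.058 with 1 library left out. Likewise Per1 ran from -0.11 to 0.0092, Dusp1 from -0.061 to 0.021 and Nr3c2, as a difference in mean log2(FPKM + 1), from -0.019 to 0.0084. Tsc22d3 (-0.097 to -0.0046) and Nr3c1 (-0.095 to -0.011) stayed negative with 1 library left out. With IL-17 library 1 and control library 3 both left out, Tsc22d3 became 0.0092, Dusp1 0.045, Nr3c1 0.0042 and Nr3c2 0.014. The 252 genes called over the whole table (123 higher, 129 lower) became 135 with no filter, where more genes were tested, 117 to 251 with 1 library left out and 160 without both libraries, with fewer samples. Median-ratio scaling gave 119 higher and 183 lower. With the replicate number as a block the count was 80, and 3 genes of the other lists (Ddit4, Mt1 and Mt2) were called in place of 6 (Anxa1 0.0521, Tsc22d1 0.0586 and Hsp90aa1 0.151 by limma adjusted p). With no filter Tsc22d1 (0.0509) and Hsp90aa1 (0.0664) were not called, nor was Hsp90aa1 without the variance trend (0.056). Deviations from group means of same-numbered libraries correlated at -0.14, 0.08 and 0.21 across genes, so the numbers do not show a pairing. Adjusted p-values of Ddit4, Mt1 and Mt2 ran up to 0.0397, 0.0365 and 0.0294 over the alternatives. Cebpd gained a call with quantile normalization and without IL-17 library 3, and Pck1 without both libraries. The difference of Hsd11b1 kept its sign, from 0.18 to 0.68, the highest with a pseudocount of 0.1. Depth is unknown, and Nr3c2 and Hsd11b1 were below the level tested.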

Other observations

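Among 6434 tested genes with a mean of at least 5 FPKM, those whose log2(FPKM + 1) followed Nr3c1 most closely over the 6 libraries were 1810030O07Rik (Pearson r 0.988), Aldh1l2 (0.969) and Ppp1r15b (0.948). Aldh1l2, a mitochondrial folate enzyme gene, stood at 7.56, 7.53 and 8.07 FPKM in IL-17 libraries, against 7.06, 8.14 and 8.27 FPKM in controls. All 3 genes were lowest in control library 1, as Nr3c1 was, and 0.0311% of the genes compared had r over 0.95. With 6 libraries and 6434 genes, such likeness is a description only, and the genes share library and depth.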
